A study of Homo sapiens with 6 samples.

Results

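NF-κB is the family of inducible transcription factors that drives inflammatory gene expression, and the 36 genes examined here encode its subunits, the IκB kinases (IKK) that release it, the inhibitors and feedback proteins that restrain it, the TRAF and cIAP proteins that carry receptor signals to it, and chemokines, cytokines and other products it induces. They were chosen by gene symbol, and all 36 were found among the 28008 genes of the count table. Expression was measured by RNA-Seq in DU-145-DR/tet-MUC1shRNA cells, a derivative of the human prostate cancer line DU-145 selected for resistance to docetaxel (DTX) and transduced with an interfering short hairpin against MUC1 that doxycycline (DOX) switches on. The DOX-negative group (3 libraries) received the DMSO vehicle, and the DOX-positive group (3 libraries) received 500 ng/ml DOX, for 7 days as the study describes it. All 6 libraries came from DTX-resistant cells. Since the treatment label mentions the hairpin in DOX-positive samples alone, its presence in the DOX-negative cells is taken from the study. DOX-treated cells with a control hairpin were not analysed here, so MUC1 silencing and DOX exposure cannot be told apart. The cells were a puromycin-selected transduced population, and protein, NF-κB nuclear location and DNA binding were not measured in these libraries.

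In resting cells, NF-κB dimers are held in the cytoplasm by IκB proteins. Receptors of the TNF and interleukin 1 families recruit TRAF and cIAP ubiquitin ligases, which activate IKK. The kinase marks IκB for degradation, and the freed dimers enter the nucleus and bind κB sites. Several of the genes they induce encode their own inhibitors, which closes a negative feedback loop, and DU-145 and some other prostate cancer lines are known for NF-κB that is active without added ligand.

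The libraries held between 15092691 and 23243713 counts, and the detection limit, set at a count of 3, lay at 0.131 to 0.202 CPM (counts scaled to a common library size) and covers counting error only. CPM values also take account of library composition but not of gene length. MUC1, the silenced gene, had 21.3, 24.8 and 19.7 CPM in DOX-negative replicates 1, 2 and 3 and 3.27, 3.87 and 4.44 CPM in DOX-positive replicates 1, 2 and 3 (log2 fold change -2.52, SE 0.146, edgeR adjusted p = 4.47e-11, with a negative value for lower in DOX-positive cells), so each library matched its label. Values of other genes are given in the same order of libraries. The prostate epithelial origin was checked with marker genes. KRT8, KRT18, EPCAM and CDH1 were present in every library, at a summed level of 587 to 651 CPM in DOX-negative and 1077 to 1165 CPM in DOX-positive cells. All 4 were called higher in DOX-positive cells. Of 5 leukocyte markers, CD3E had 0 counts, PTPRC at most 3, LYZ at most 2 and CD14 at most 9, while CD68 accounted for nearly all of the summed level of 91.7 to 107 CPM without and 158 to 179 CPM with DOX. Of 4 stromal and endothelial markers, PDGFRB, PECAM1 and VWF had at most 6 counts in any library, and the summed level, mostly COL1A1, was 4.14 to 4.84 CPM without and 4.23 to 5.33 CPM with DOX. The part of the higher epithelial markers and CD68 in the results that follow was not tested. In bulk cultures, more cells expressing a gene and more RNA per cell cannot be told apart.

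DOX-positive cells had higher transcript levels of several NF-κB-induced chemokines, cytokines and feedback genes and lower levels of others. CXCL2 rose 2.51-fold, CXCL1 2.09-fold, IL6 1.96-fold, TNFAIP3 1.77-fold and NFKBIZ 1.60-fold, and TNFAIP2, BCL3 and CSF1 fell by 0.61, 0.44 and 0.33 on the log2 scale. Among the 9 genes of the subunits and kinases, 1 passed the threshold, RELA, which fell by 0.20 on the log2 scale. Calls rest on the quasi-likelihood test of edgeR fitted to all 14292 genes that passed a filter on low counts, with Benjamini-Hochberg adjusted p under 0.05 as the threshold.

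Of the 36 genes, 31 passed the filter and 5 did not, namely CXCL3, CCL2, CCL20, TNF and CSF2. Of the 31, 10 were called higher, 6 lower and 15 were not called, so that 51.6% were called, where 26.7% of all genes tested were called, 13.0% higher and 13.7% lower. PTGS2 passed the filter only through its DOX-positive libraries, so it had to differ, and its call supports nothing here. Without it, 9 genes were called higher and 6 lower of 30, with a median log2 fold change of -0.059. In CPM, 17 of the 31 genes had no overlap between groups, compared with 5684 of the 14292 genes tested (39.8%). PTGS2, whose separation the filter fixed, is among the 17. The median log2 fold change was -0.051 over the 31 genes and -0.0034 over all genes tested, and the median absolute log2 fold change was 0.29 and 0.19, respectively. The 11 tested chemokines, cytokines and other targets held 6 genes called higher and 2 called lower, with a median log2 fold change of 0.21. Without PTGS2, 5 of 10 were called higher and 2 lower, with a median of 0.17. In comparison, the 9 subunits and kinases held 0 called higher and 1 called lower, with 4 at an unadjusted p under 0.05, and a median of -0.14. DESeq2 called the same number, 8 and 1, in the 2 groups. These counts are a description of gene lists of unequal size, and the difference between the lists was not tested.

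**Figure D1:**
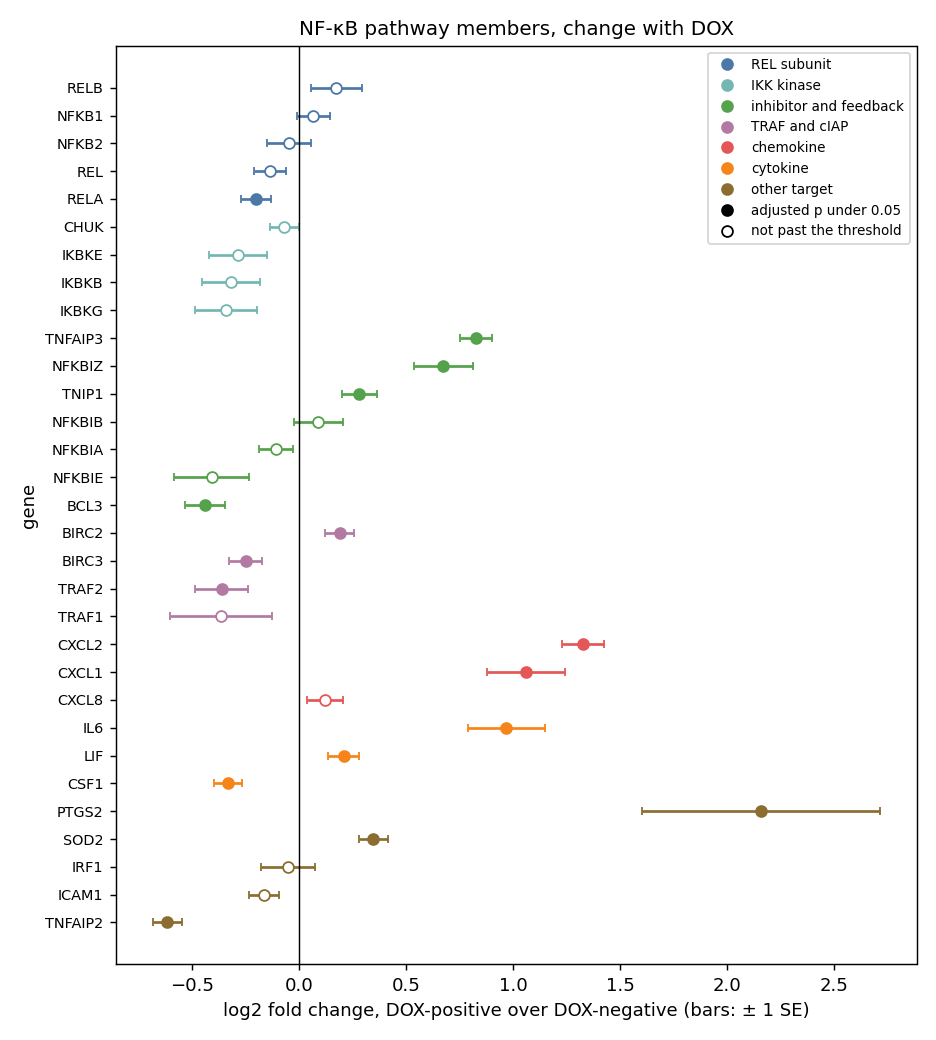
Log2 fold change (DOX-positive over DOX-negative, horizontal axis) of the 31 tested genes, grouped by role (colours), with bars of ± 1 SE from edgeR; filled points have an adjusted p under 0.05. Chemokines, IL6, TNFAIP3 and NFKBIZ lie to the right of 0, all 9 subunits and kinases lie within 0.35 of it, and PTGS2 has both the largest estimate and the widest bar.

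RELA, which encodes the p65 subunit that carries the activating domain of the most common dimer, had 113, 119.6 and 120.4 CPM in the DOX-negative and 107, 96.1 and 104 CPM in the DOX-positive libraries. The groups did not overlap, and the highest DOX-positive library was close to the lowest DOX-negative library (log2 fold change -0.20, SE 0.0684, edgeR adjusted p = 0.0345). The call was lost when any DOX-negative replicate was left out (edgeR adjusted p = 0.0538, 0.0766 and 0.1 for 1, 2 and 3) or DOX-positive replicate 2 or 3 was (edgeR adjusted p = 0.111 and 0.0763), and held when DOX-positive replicate 1 was (edgeR adjusted p = 0.0376). It was also lost after thinning to the smallest library (edgeR adjusted p = 0.0505). NFKB1, which encodes the p105 precursor of p50, the usual partner of p65, had 67.3, 72.9 and 62.8 CPM without and 69.1, 67.0 and 77.2 CPM with DOX. These groups overlapped and no difference was called (log2 fold change 0.069, SE 0.0793, edgeR adjusted p = 0.569).

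The remaining subunits were likewise not called. NFKB2, the precursor of the p52 subunit of the noncanonical pathway, was at 32.1, 41.0 and 35.3 CPM without and 34.7, 30.8 and 40.0 CPM with DOX, with a log2 fold change of -0.044 (edgeR adjusted p = 0.801, SE 0.104). RELB, the partner of p52, was at 12, 13.6 and 11.3 CPM without and 13.8, 14.4 and 13.6 CPM with DOX, with a log2 fold change of 0.18 (edgeR adjusted p = 0.302, SE 0.120). REL, which encodes c-Rel, was at 83.7, 72.2 and 82.2 CPM without and 70.9, 74.8 and 71.2 CPM with DOX. Its log2 fold change was -0.14 (edgeR adjusted p = 0.195, SE 0.0751). Of the 50-base stretches of its exons, 50.4% are shared with other genes, mainly AC010733.2 on the same strand. Which gene its reads came from is therefore uncertain. Per length, on TPM, a length-scaled abundance, rescaled without 5 short noncoding RNAs, RELA was the most abundant subunit in DOX-negative cells at 132 ± 4.96 TPM (SD, n = 3). NFKB1 followed at 42.8 ± 4.24 TPM, REL at 27.1 ± 1.82 TPM, NFKB2 at 25.9 ± 3.57 TPM and RELB at 15.9 ± 1.88 TPM (SD, n = 3 each), an order in which REL and NFKB2 did not differ beyond their spread. With DOX, RELA was at 113 ± 5.34 TPM and remained the most abundant.

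None of the 4 kinase genes passed the threshold in edgeR, although 3 had an unadjusted p under 0.05, and DESeq2 and limma on either TPM scale also called 0. All 4 had negative log2 fold changes, with a median of -0.30. IKBKB, the catalytic kinase of the canonical pathway, had 17.2, 17.2 and 12.2 CPM without and 11.6, 12.8 and 13.0 CPM with DOX. DOX-negative replicate 3 lay within the DOX-positive range and the other 2 DOX-negative libraries lay above it (log2 fold change -0.32, SE 0.135, edgeR adjusted p = 0.0861); without that replicate the change was -0.47 and was called (edgeR adjusted p = 0.0118). CHUK, the catalytic kinase of the noncanonical pathway, had groups that did not overlap but differed little, at 97.6, 94.7 and 95.5 CPM and 90.1, 90.3 and 94.4 CPM (log2 fold change -0.068, edgeR adjusted p = 0.496, SE 0.0667). IKBKE, an IKK-related kinase, was at 10.8, 12.3 and 10.3 CPM without and 10.1, 8.46 and 8.74 CPM with DOX, groups that did not overlap, with a log2 fold change of -0.29 (edgeR adjusted p = 0.126, SE 0.136). IKBKG, which encodes the NEMO scaffold of the kinase complex, was at 10.2, 14.2 and 10.7 CPM and 10.2, 8.99 and 8.40 CPM. Its log2 fold change was -0.34 (edgeR adjusted p = 0.0885, SE 0.146), but 35.5% of its 50-base stretches are also in other genes, mainly the pseudogene IKBKGP1.

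Promoter sequence was examined because NF-κB is known to act on several of its own genes through κB sites. The κB decamer, the textbook consensus of NF-κB sites, was searched on both strands of the 300 bases around each annotated start (250 before and 50 after) in the RefSeq promoters of GRCh38.p14. Of 27305 genes, 13.3% held a match in any of their windows, and 17.4% of the 10483 tested genes with a window did. Among the 30 genes of the pathway set with a window, 16 held a match, which was 53.3%. By role, a match was found in 6 of 6 inhibitor and feedback genes, 3 of 4 subunits, 4 of 5 chemokines, 1 of 3 cytokines, 1 of 4 TRAF and cIAP genes, 1 of 5 other targets and 0 of 3 kinases. By call, it was found in 6 of 9 genes called higher, 2 of 5 called lower and 6 of 12 not called. The promoters of RELB, IKBKB, NFKBIE, CCL2, LIF and CSF1 were not analysed here. A match is a description of letters and not evidence of binding in these cells, and genes of this set are textbook NF-κB targets partly because such sites were found in them. The matches in the subunit genes are shown first, in 30 bases of the gene's own strand around the first match of a window, with matched bases in capitals. NFKB2 holds 5 matches over 2 of its 3 annotated starts, of which the stretch shows an overlapping pair. None of these 3 genes was called.
NFKB1 (chr4:102501300-102501329, plus strand): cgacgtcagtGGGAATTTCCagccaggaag
NFKB2 (chr10:102394461-102394490, plus strand): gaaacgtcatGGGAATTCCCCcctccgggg
REL (chr2:60881517-60881546, plus strand): cgtcagccgcGGGAAATTCCCctcccgcca

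**Figure D2:**
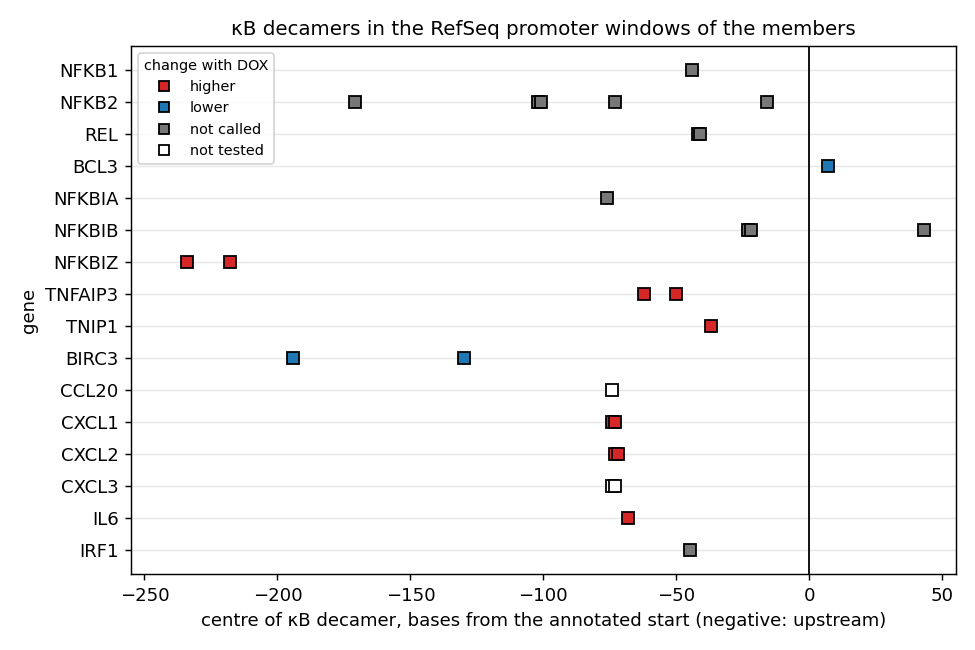
Position of each κB decamer (squares) relative to the annotated start (horizontal axis, bases, negative for upstream) in the 16 genes with a match, coloured by the call in DOX-positive cells. CXCL1, CXCL2, CXCL3, CCL20, IL6 and NFKBIA hold theirs between 68 and 76 bases upstream, and red, blue and grey squares (higher, lower and not called) all occur close to the start.

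The inhibitor and feedback genes diverged. TNFAIP3, NFKBIZ and TNIP1 rose, BCL3 fell, and NFKBIA, NFKBIB and NFKBIE were not called. TNFAIP3 (chr6:137867188-137883312, plus strand in GENCODE 29, GRCh38) encodes A20, the ubiquitin-editing enzyme that shuts off IKK activation. It was at 55.9, 52.5 and 53.6 CPM without and 99.6, 87.7 and 100.2 CPM with DOX. Each DOX-positive library was well above each DOX-negative library, and the mean went from 53.99 ± 1.71 to 95.8 ± 7.06 CPM (SD, n = 3 each; log2 fold change 0.83, SE 0.0754, edgeR adjusted p = 3.62e-08). TNIP1, which encodes the A20-binding partner ABIN1, had 104, 129.99 and 102 CPM without and 140.3, 126 and 143 CPM with DOX. Its groups overlapped because DOX-negative replicate 2 was higher than DOX-positive replicate 2 (log2 fold change 0.28, SE 0.0828, edgeR adjusted p = 0.014). The TNIP1 call was lost without DOX-negative replicate 1 or 3 (edgeR adjusted p = 0.0932 and 0.081), without DOX-positive replicate 3 (edgeR adjusted p = 0.065) and with rescaled TPM (limma adjusted p = 0.0858 and 0.0842).

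NFKBIA (chr14:35401511-35404749, minus strand) encodes IκBα, the inhibitor whose resynthesis ends the canonical response, and it was the most abundant of the 36 genes per length, at 417 ± 41.1 TPM without and 382 ± 20.7 TPM with DOX (rescaled, SD, n = 3 each). It had 203, 186 and 237 CPM without and 207, 182 and 192 CPM with DOX. The groups overlapped and no change was called (log2 fold change -0.11, SE 0.0778, edgeR adjusted p = 0.339). The ratio of TNFAIP3 to NFKBIA counts was 0.276, 0.283 and 0.226 in the DOX-negative and 0.481, 0.482 and 0.522 in the DOX-positive libraries. The pair was chosen with its values known and carries no test. NFKBIB, the gene of IκBβ, was at 19.2, 20.7 and 18.3 CPM without and 23.9, 18.0 and 19.9 CPM with DOX (log2 fold change 0.092, edgeR adjusted p = 0.599, SE 0.114). NFKBIE, the gene of IκBε, was at 9.74, 11.4 and 7.56 CPM without and 6.67, 6.06 and 9.14 CPM with DOX. Its groups overlapped (log2 fold change -0.41, SE 0.174, edgeR adjusted p = 0.0883), and it was called without DOX-negative replicate 3 or DOX-positive replicate 3 (edgeR adjusted p = 0.0287 and 0.0254). NFKBIE was also called with no filter (edgeR adjusted p = 0.0444).

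The nuclear IκB proteins, which modify the response on chromatin instead of holding dimers in the cytoplasm, changed in opposite directions. NFKBIZ, which encodes IκBζ, a coactivator of secondary response genes such as IL6, had 9.30, 9.51 and 6.97 CPM without and 12.9, 13.7 and 14.7 CPM with DOX. The groups did not overlap (log2 fold change 0.68, SE 0.139, edgeR adjusted p = 0.000891). BCL3, the partner of p50 and p52 homodimers, was at 39.6, 38.3 and 41.3 CPM without and 27.5, 33.0 and 27.4 CPM with DOX. Each DOX-positive library was below each DOX-negative library (log2 fold change -0.44, SE 0.0921, edgeR adjusted p = 0.0011). The ratio of BCL3 to NFKBIZ counts went from 4.74 ± 1.04 without to 2.14 ± 0.270 with DOX (SD, n = 3 each), again a pair chosen with its values known.

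All 6 of the inhibitor and feedback genes with a window held a κB decamer, including genes that rose, fell or were not called. They are shown because genes with each of these calls carry it. In TNFAIP3 the second match is cut by the end of the stretch, NFKBIZ and NFKBIB hold further matches outside theirs, and BCL3 holds its match downstream of the annotated start.
TNFAIP3 (chr6:137867182-137867211, plus strand): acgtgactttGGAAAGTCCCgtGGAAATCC
NFKBIZ (chr3:101827757-101827786, plus strand): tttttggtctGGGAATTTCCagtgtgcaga
TNIP1 (chr5:151081057-151081086, minus strand): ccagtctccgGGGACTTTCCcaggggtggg
NFKBIA (chr14:35404811-35404840, minus strand): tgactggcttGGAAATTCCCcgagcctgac
NFKBIB (chr19:38899931-38899960, plus strand): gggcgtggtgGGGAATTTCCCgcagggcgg
BCL3 (chr19:44748700-44748729, plus strand): ccggctgcagGGGAAGTCCCggcgcccggc
The 120 bases before the start of NFKBIA hold 1 match and are given in full, and the same stretch of CXCL1 is given with the chemokines for comparison.
NFKBIA (chr14:35404750-35404869, minus strand): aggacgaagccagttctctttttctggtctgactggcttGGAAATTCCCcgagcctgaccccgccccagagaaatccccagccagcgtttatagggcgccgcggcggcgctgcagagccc

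Among the 4 TRAF and cIAP genes, BIRC2 was called higher, BIRC3 and TRAF2 lower, and TRAF1 was not called. BIRC2 and BIRC3, neighbours on chromosome 11, encode cIAP1 and cIAP2, the ubiquitin ligases that build the platform for IKK at the TNF receptor. BIRC2 was at 115, 106 and 116 CPM without and 122, 128 and 135 CPM with DOX (log2 fold change 0.19, SE 0.0676, edgeR adjusted p = 0.0401). BIRC3 went the other way, at 61.2, 56.4 and 57.6 CPM and 47.2, 48.1 and 52.3 CPM (log2 fold change -0.25, SE 0.0779, edgeR adjusted p = 0.0217). Neither pair of groups overlapped, and the ratio of BIRC3 to BIRC2 counts was 0.520 ± 0.0192 without and 0.384 ± 0.00738 with DOX (SD, n = 3 each), a pair chosen with its values known. TRAF2, the adaptor that recruits the cIAPs, had 14.6, 15.3 and 13.9 CPM without and 12.6, 10.0 and 11.6 CPM with DOX, groups that did not overlap (log2 fold change -0.36, SE 0.123, edgeR adjusted p = 0.034). TRAF1, itself an NF-κB target, had 3.58, 3.94 and 3.38 CPM without and 2.14, 2.66 and 3.83 CPM with DOX and was not called (log2 fold change -0.36, edgeR adjusted p = 0.278, SE 0.238). The 3 calls were small and depended on single libraries and on the tool or scaling. That of BIRC2 was lost without DOX-negative replicate 1 or 2 (edgeR adjusted p = 0.0817 and 0.13) or DOX-positive replicate 2 or 3 (0.0563 and 0.176), that of BIRC3 without DOX-negative replicate 1 (0.114) and DOX-positive replicate 1 (0.0957), and that of TRAF2 without DOX-negative replicate 1 or 2 (0.0861 and 0.1) and DOX-positive replicate 2 or 3 (0.115 and 0.0679). That of BIRC2 was also lost under total counts (edgeR adjusted p = 0.0825) and with rescaled TPM (limma adjusted p = 0.0966 and 0.0984), that of BIRC3 with rescaled TPM (limma adjusted p = 0.0594 and 0.0562), and that of TRAF2 with DESeq2 (adjusted p = 0.056).

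Among the genes of the set that passed the filter in both groups, CXCL2 and CXCL1 had the largest called increases. CXCL2 (chr4:74097035-74099293, minus strand) and CXCL1 (chr4:73869393-73871242, plus strand) encode related neutrophil chemokines that signal through CXCR2. CXCL2 had 295, 272 and 303 counts, or 16.2, 13.9 and 15.1 CPM, without DOX and 884, 690 and 577 counts, or 38.5, 36.04 and 38.8 CPM, with DOX. The groups were far apart relative to their spread, with means of 15.1 ± 1.16 and 37.8 ± 1.51 CPM (SD, n = 3 each; log2 fold change 1.33, SE 0.0970, edgeR adjusted p = 1.35e-09). CXCL1 had 61, 77 and 64 counts without and 145, 159 and 109 counts with DOX, or 3.36, 3.94 and 3.18 and 6.32, 8.31 and 7.33 CPM. These groups did not overlap either (log2 fold change 1.06, SE 0.182, edgeR adjusted p = 0.000157). Of the 50-base stretches of CXCL2 exons, 5.13% are also in CXCL1 and 4.62% in CXCL3, so that most of the CXCL2 sequence can be assigned. CXCL3 had 7, 7 and 10 counts without and 19, 9 and 3 counts with DOX and was not tested; at this depth no difference was detectable.

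CXCL8 (chr4:73740506-73743716, plus strand), which encodes interleukin 8 and lies in the same gene cluster, was more abundant per length than CXCL2 without DOX, at 112 ± 0.733 against 42.2 ± 3.17 TPM (rescaled, SD, n = 3 each). With DOX they were at 120.2 ± 15.8 and 104 ± 3.89 TPM. CXCL8 had 70.8, 69.6 and 74.1 CPM without and 82.4, 66.0 and 85.5 CPM with DOX. DOX-positive replicate 2 lay below all DOX-negative libraries and the other 2 DOX-positive libraries lay above them (log2 fold change 0.12, SE 0.0855, edgeR adjusted p = 0.313); without that replicate the change was 0.23 and was called (edgeR adjusted p = 0.0249). The ratio of CXCL2 to CXCL8 counts was 0.229, 0.200 and 0.203 in the DOX-negative and 0.467, 0.546 and 0.454 in the DOX-positive libraries, from a pair chosen with its values known. CCL20, a chemokine for CCR6-bearing cells, had 16, 5 and 7 counts without and 5, 3 and 1 counts with DOX, and CCL2, a monocyte chemokine, had 4, 1 and 1 counts and 0, 0 and 0 counts. Both were below the filter and not tested, and 0 counts of CCL2 allow up to 0.131, 0.157 and 0.202 CPM in the DOX-positive libraries.

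The windows of CXCL1, CXCL2 and CXCL3 are shown because these genes carry nearly the same κB stretch within 1 base of the same distance from their starts, with 29 of 30 bases identical between CXCL1 and CXCL2, 28 between CXCL1 and CXCL3 and 29 between CXCL2 and CXCL3, while their transcript levels differed. Each holds 2 overlapping κB decamers. CXCL8 held no κB decamer in its window. This says only that these letters are not in it.
CXCL1 (chr4:73869304-73869333, plus strand): ctggaactccGGGAATTTCCCtggcccggg
CXCL2 (chr4:74099254-74099283, minus strand): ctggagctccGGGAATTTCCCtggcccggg
CXCL3 (chr4:74038749-74038778, minus strand): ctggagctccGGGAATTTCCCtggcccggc
CCL20 (chr2:227813753-227813782, plus strand): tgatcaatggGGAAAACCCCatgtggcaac
The decamer GGGAATTTCC, or its reverse complement GGAAATTCCC, was the match held by the most genes of the set, 8 of the 30 with a window, namely CXCL1, CXCL2, CXCL3, NFKB1, NFKBIA, NFKBIB, NFKBIZ and REL. Among all 27305 genes 49 held it, or 0.179%. It was picked as the most frequent match, so these numbers are a description. Of the 8 genes, CXCL1, CXCL2 and NFKBIZ were called higher, CXCL3 was not tested and the other 4 were not called. The 120 bases before the start of CXCL1 are given in full.
CXCL1 (chr4:73869273-73869392, plus strand): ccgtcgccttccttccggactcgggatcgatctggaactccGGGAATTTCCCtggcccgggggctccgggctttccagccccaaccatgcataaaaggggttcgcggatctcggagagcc

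**Figure D3:**
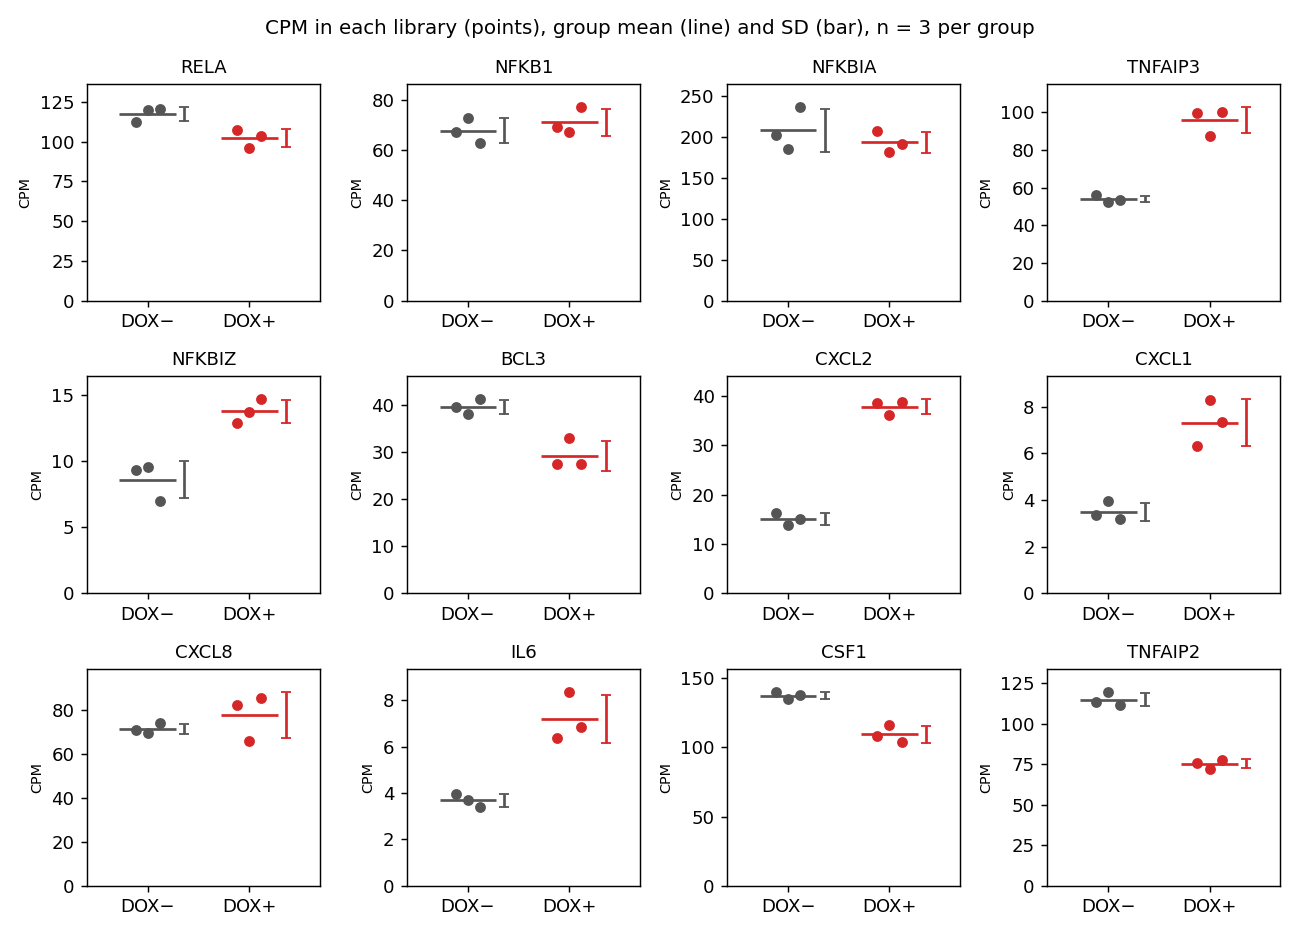
CPM of 12 genes in each library (points; vertical axes start at 0 and differ between genes), with the group mean (line) and SD (bar), for DOX-negative (DOX−, grey) and DOX-positive (DOX+, red) cells, n = 3 each. Groups are separate for TNFAIP3, NFKBIZ, BCL3, CXCL2, CXCL1, IL6, CSF1, TNFAIP2 and, narrowly, RELA, and overlap for NFKB1, NFKBIA and CXCL8.

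Among the cytokines, IL6 rose, LIF rose slightly and CSF1 fell. IL6 (chr7:22725884-22732002, plus strand) encodes interleukin 6, which signals through JAK and STAT3. It had 3.96, 3.68 and 3.38 CPM without and 6.36, 8.36 and 6.86 CPM with DOX. No DOX-positive library was as low as a DOX-negative one, and the means were 3.68 ± 0.290 and 7.19 ± 1.04 CPM (SD, n = 3 each; log2 fold change 0.97, SE 0.180, edgeR adjusted p = 0.000345). Its window holds 1 κB decamer, shown as the only one found in a cytokine gene.
IL6 (chr7:22727117-22727146, plus strand): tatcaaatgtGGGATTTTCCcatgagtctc
LIF, a cytokine of the same receptor family, was at 78.5, 82.0 and 78.9 CPM without and 100.1, 86.5 and 90.1 CPM with DOX (log2 fold change 0.21, SE 0.0727, edgeR adjusted p = 0.0366). Among other settings, the LIF call was lost without DOX-negative replicate 1 or 3 (edgeR adjusted p = 0.126 and 0.0886), without DOX-positive replicate 1 or 3 (edgeR adjusted p = 0.219 and 0.0658), under total counts (edgeR adjusted p = 0.083), and with rescaled TPM (limma adjusted p = 0.0917 and 0.0928). CSF1, the growth factor of macrophages, was at 140.1, 135 and 138 CPM without and 108, 116 and 104 CPM with DOX. Its groups did not overlap, and CSF1 was lower with DOX (log2 fold change -0.33, SE 0.0663, edgeR adjusted p = 0.000747).

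Both remaining cytokines had low counts. CSF2, which encodes GM-CSF, had 7, 4 and 5 counts without and 29, 2 and 17 counts with DOX. DOX-positive replicate 2 lay below the DOX-negative libraries and the other 2 DOX-positive libraries lay above them. CSF2 did not pass the filter; with no filter its log2 fold change was 1.57 (edgeR adjusted p = 0.04). Without DOX-positive replicate 2 it passed the filter and was called (2.10, edgeR adjusted p = 0.00301), but only through the 2 DOX-positive libraries that were high, which fixed that difference. It also passed but was not called without single DOX-negative libraries (edgeR adjusted p between 0.0958 and 0.178). TNF, a main ligand of the pathway, had 0, 1 and 2 counts without and 0, 0 and 0 counts with DOX, at or under the floor in every library, so no fold is given.

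The other targets were split. TNFAIP2, a TNF-induced gene of membrane protrusions, had 113, 119.6 and 112 CPM without and 75.6, 72.2 and 77.7 CPM with DOX. Each DOX-positive library was below each DOX-negative library, the largest fall among the tested genes of the set (log2 fold change -0.61, SE 0.0685, edgeR adjusted p = 6.97e-07). SOD2, the mitochondrial superoxide dismutase, was at 121, 133 and 133 CPM without and 159, 174 and 160.5 CPM with DOX. Its groups did not overlap and SOD2 rose (log2 fold change 0.35, SE 0.0667, edgeR adjusted p = 0.000457), although it shares 8.98% of its 50-base stretches with other genes, mainly SOD2-OT1. PTGS2, which encodes cyclooxygenase 2, the inducible enzyme of prostaglandin synthesis, had 7, 6 and 1 counts without and 15, 20 and 26 counts with DOX. The groups did not overlap in CPM, but the counts were low and the estimate was wide (log2 fold change 2.16, SE 0.556, edgeR adjusted p = 0.00592). With limma on log2(TPM + 1) the change was 0.54 (limma adjusted p = 0.0401), a scale that compresses low genes.

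ICAM1, an adhesion molecule for leukocytes, was at 129, 148 and 134 CPM without and 131, 115 and 122 CPM with DOX. The groups overlapped and ICAM1 was not called (log2 fold change -0.16, edgeR adjusted p = 0.0959, SE 0.0708), except when libraries were scaled by total counts (edgeR adjusted p = 0.0453). IRF1, an interferon regulatory factor that NF-κB also induces, had 10.7, 12.4 and 11.6 CPM without and 11.6, 10.9 and 11.03 CPM with DOX, with a log2 fold change of -0.051 (edgeR adjusted p = 0.81, SE 0.124). Its promoter window holds a κB decamer, and those of ICAM1, TNFAIP2, SOD2 and PTGS2 hold none. The exons of ICAM1, IRF1, IL6, LIF, NFKBIB, IKBKE and RELA overlap other genes on the opposite strand, and whether reads were counted by strand is not given in the sources used here.

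Across the 15 settings tried, 9 of the 15 called genes other than PTGS2 stayed past the threshold in each. These were 6 called higher (TNFAIP3, NFKBIZ, CXCL1, CXCL2, IL6 and SOD2) and 3 called lower (BCL3, CSF1 and TNFAIP2). PTGS2 was called in the 14 settings that could test it. Apart from DESeq2 and the fit with no filter, these applied the same kind of low-count filter or its list of genes. Its calls are therefore not counted as stability. The filter fixed its direction in the main test, though not in the fit with no filter (log2 fold change 2.17, edgeR adjusted p = 0.000982). The other 6 calls (RELA, TNIP1, BIRC2, BIRC3, TRAF2 and LIF) were lost in at least 1, and their absolute log2 fold changes were at most 0.36.

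Upstream of the subunits, 50 other genes of the pathway (receptors, adaptors and receptor kinases, ubiquitin enzymes and further IκB proteins) were examined. Of these, 47 were tested, 11 were called higher and 5 lower, which is 34.0% called beside 26.7% of all genes tested (13.0% higher and 13.7% lower), and their median log2 fold change was -0.0079. The largest rise was in TNFRSF11A, which encodes RANK, the receptor of RANKL, at 14.1, 14.7 and 14.7 CPM without and 28.7, 25.8 and 29.6 CPM with DOX (log2 fold change 0.95, SE 0.102, edgeR adjusted p = 3.65e-07). MYD88 and IRAK4, the adaptor and first kinase of interleukin 1 and Toll-like receptors, rose by 0.56 (edgeR adjusted p = 0.000222, SE 0.0986) and 0.59 (edgeR adjusted p = 0.000269, SE 0.107) on the log2 scale. In the same receptor route, IL1RAP, the coreceptor of interleukin 1, fell (log2 fold change -0.49, SE 0.0847, edgeR adjusted p = 0.000162), and MAP3K7, the TAK1 kinase that activates IKK, fell (log2 fold change -0.43, SE 0.0756, edgeR adjusted p = 0.000209). CYLD, a deubiquitinase that opposes IKK activation, rose (log2 fold change 0.59, SE 0.0738, edgeR adjusted p = 3.14e-06), and OTULIN, a deubiquitinase of linear chains, fell (log2 fold change -0.32, SE 0.0762, edgeR adjusted p = 0.00335). The largest fall was in TRAF5, an adaptor of TNF family receptors, at 18.5, 17.0 and 17.5 CPM without and 7.97, 11.2 and 8.81 CPM with DOX (log2 fold change -0.92, SE 0.131, edgeR adjusted p = 1.69e-05). Called genes of this list included activators and inhibitors in each direction, and the 8 named here stayed past the threshold under all 15 alternatives.

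A further list of 45 textbook NF-κB-induced genes outside the set held 26 tested genes. Of these, 10 were called higher and 3 lower, with a median log2 fold change of 0.11. Of all genes tested, 26.7% were called (13.0% higher and 13.7% lower). This list and that of the pathway genes were written with earlier results of these data known, so their counts are a description. LCN2, an iron-binding protein of the acute phase response, had 5.12, 5.37 and 3.58 CPM without and 8.50, 18.4 and 8.74 CPM with DOX, with DOX-positive replicate 2 far above the others (log2 fold change 1.34, SE 0.238, edgeR adjusted p = 0.000218). KLF6, a zinc finger transcription factor, was at 122, 129 and 145 CPM and 336, 294 and 362 CPM (log2 fold change 1.33, SE 0.0778, edgeR adjusted p = 5.16e-11). IER3, an early response survival gene, rose (log2 fold change 0.82, SE 0.0758, edgeR adjusted p = 4.83e-08), and FAS, the death receptor and also a known p53 target, rose (log2 fold change 0.67, SE 0.108, edgeR adjusted p = 8.55e-05). In contrast, IL15, MAP3K8 and IL11 were called lower. IL15, a cytokine of lymphocytes, was at 1.93, 2.05 and 2.19 CPM without and 1.05, 0.731 and 1.21 CPM with DOX (log2 fold change -1.05, SE 0.319, edgeR adjusted p = 0.0174), a call lost without DOX-positive replicate 2 (edgeR adjusted p = 0.0589). MAP3K8, the TPL2 kinase, and IL11, a cytokine related to IL6, had log2 fold changes of -0.68 (edgeR adjusted p = 0.0379, SE 0.238) and -0.43 (edgeR adjusted p = 0.0431, SE 0.155), and these calls were lost in 5 and 9 of the 15 alternatives. Called genes in this list numbered 8 when DOX-negative replicate 3 was left out and 7 when DOX-positive replicate 2 was. Of the 19 genes not tested, VCAM1, SELE and CSF3 had 0 counts in every library.

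**Figure D4:**
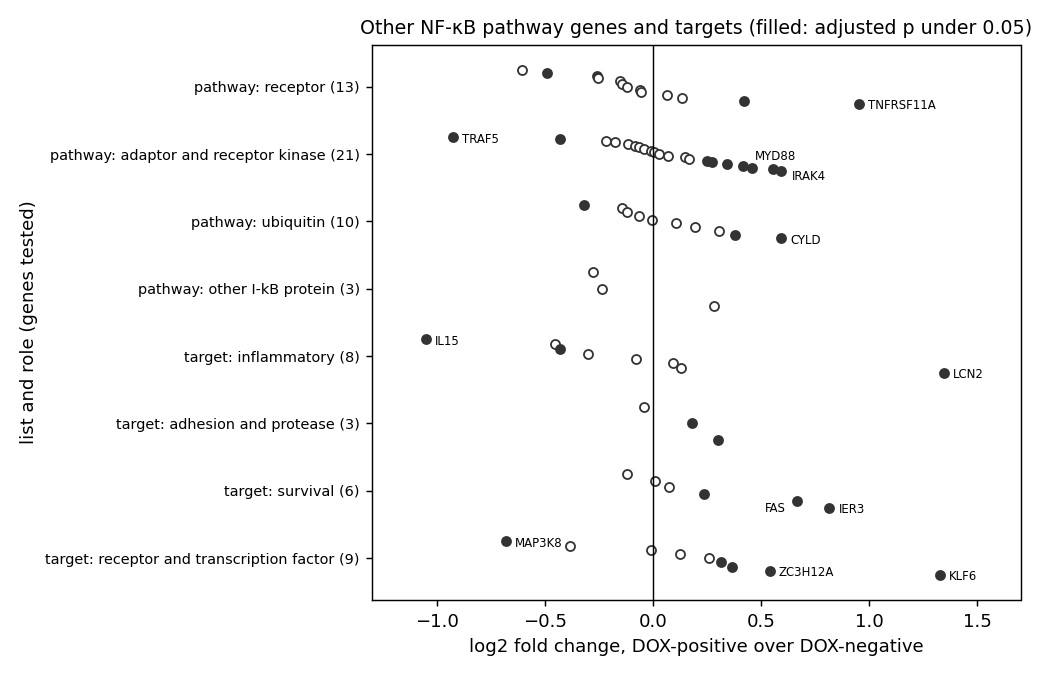
Log2 fold change (DOX-positive over DOX-negative, horizontal axis) of the 47 tested pathway genes and 26 tested further targets, by role (rows, with the number tested); filled points have an edgeR adjusted p under 0.05, and called genes with an absolute change of at least 0.5 are named. Filled points lie on both sides of 0 in 3 of the 4 pathway rows, and the largest rises are LCN2 and KLF6.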

How the data were processed

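RNA-Seq (TruSeq Stranded mRNA) was performed on triplicate cultures of DOX-negative and DOX-positive DU-145-DR/tet-MUC1shRNA cells, grouped and numbered by their titles. The submitters' processing notes name STAR, DESeq2 and GRCh38 (hg38); the counting strand and annotation are not given in the sources used here. The authors deposited counts per gene symbol (28008 genes, unnormalized) and TPM (25546 genes), in which 5 short noncoding RNAs took 34.41% to 64.43% of each library. TPM was therefore used only after rescaling without them. Counts were tested with edgeR 4.0.16 in R 4.3.3 (quasi-likelihood F-test, filterByExpr, TMM, two-sided, Benjamini-Hochberg adjustment over 14292 genes, threshold 0.05). CPM values carry the TMM factors. Alternatives were thinning to the smallest library, DESeq2 1.42.0, total counts or RLE factors in place of TMM, no filter or a minimum of 10 counts per library, a replicate block, limma 3.58.1 on log2(rescaled TPM + 1) and log2(rescaled TPM + 0.1), and each library left out in turn. The fits were tested on simulated data. The cultures are assumed to be separate, so p-values measure the spread between these samples only. The set and the other lists were chosen with earlier results of these data known. All genes of the set and, of the other lists, up to 4 of the largest called changes in each direction were named. Gene positions and shared 50-base stretches came from GENCODE 29, promoter windows from RefSeq GRCh38.p14. A marker list and an overlapping gene are not reported here.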

Additional observations from a re-analysis of the deposited data

How the results depend on the processing

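Of the 15 genes of the set that were called other than PTGS2, 9 were never lost over 15 alternatives. Over the tested genes of the set, a call was lost 39 times and gained 6 times, and CSF2, not tested, was called in 2 further cases. Leaving out 1 library at a time gave 10 to 15 called genes of the set, with 10 without DOX-negative replicate 1, and 0 to 1 called subunit or kinase. Among subunits and kinases, 0 were called with the replicate block and 0 after thinning to the smallest library. Further targets fell to 8 with limma on log2(TPM + 1) and 8 with limma on log2(TPM + 0.1), both rescaled, and ranged from 7 to 11 with 1 library left out. Pathway genes ranged from 14 to 18, targets of the set from 7 to 10 and MUC1 from -2.62 to -2.36 on the log2 scale. The 10 targets, found without DOX-positive replicate 2, included CSF2, whose call there the filter fixed. Counts of targets also include PTGS2 wherever it was tested. Sign changed only for genes that were not called. With 1 library left out, NFKB2 ranged from -0.14 to 0.056 (0.056 without DOX-negative replicate 2, and 0.040 when DOX-positive replicate 2 was left out), NFKBIB from -0.036 to 0.18 and IRF1 from -0.10 to 0.000275. The cause of these differences was not tested. The titles give replicate numbers but do not say whether same-numbered cultures were paired. The deviations of same-numbered libraries correlated at -0.0702, -0.145 and -0.0366, which shows no strong shared deviation but cannot decide whether they were paired. With the replicate block, 11 genes of the set and 3158 of all genes were called, compared with 16 and 3816, and RELA, BIRC2, BIRC3, TRAF2 and LIF were no longer called (edgeR adjusted p = 0.0829, 0.0864, 0.0541, 0.0537 and 0.0863). Of all calls 48.8% were higher, and 39.3% with total counts, which shifted the median of all genes to -0.038. Depth limits CXCL3, CCL2, CCL20, TNF and CSF2, and PTGS2 in DOX-negative cells.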
